A study of Mus musculus with 6 samples.

Results

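Ly6a, Ly6c1, Ly6c2, Ly6e and Ly6d are 5 genes of the Ly6 cluster on mouse chromosome 15, out of 28786 gene IDs in the deposited table. They were picked by name, each row being matched through its Ensembl ID, because Ly6a and Ly6c2 were already known to move in opposite directions between the groups compared here. The measured contrast therefore chose them, and their levels and differences are given as a description, with no test. Ly6a encodes Sca-1, the surface antigen by which mouse blood stem cells are sorted.

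The study is titled after low-input RNA-seq of hematopoietic stem cells (HSCs) and holds 6 libraries, 3 labelled TMRM_High and 3 labelled TMRM_Low. TMRM is a dye whose signal follows the membrane potential of mitochondria, and the comparison sets RNA of strongly stained HSCs against RNA of weakly stained ones. Both groups came from the femora and tibiae of wild type C57BL/6 mice 6 to 8 weeks old. No treatment is named. Each library was made from 1500 sorted cells with the phenotype Lin- Sca-1+ c-Kit+ CD48- CD150+, so Sca-1 protein was itself part of the gate in both groups. The labels do not say whether mice were pooled or whether each replicate had its own mouse, so the spread between them may be technical.

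Ly6 proteins are small, disulfide-rich proteins of the Ly6/uPAR family, and most of those in the cluster are held on the outer face of the cell membrane by a glycosylphosphatidylinositol (GPI) anchor. In blood, single members serve as lineage antigens: Sca-1 for stem and multipotent cells, Ly6C for monocytes and the granulocyte lineage, and Ly6D for lymphoid progenitors on the way to B cells. Ly6a and Ly6e are also well known interferon-induced genes, and Ly6a and Ly6c are expressed by endothelial cells as well.

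The first 240 coding bases of 3 of the genes are shown because the authors' method divides reads between alike transcripts, and these transcripts are alike. They are given 5′ to 3′ from the start codon, from the transcript numbered 201 of each gene in GENCODE M21 on GRCm38. All 3 genes lie on the minus strand. The bases printed span introns in the genome, at chr15:75045558-75048511 for Ly6c1, chr15:75108699-75111667 for Ly6c2 and chr15:74995427-74997604 for Ly6a. Capitals in Ly6c1 and Ly6c2 mark the 6 bases at which these differ from each other, and capitals in Ly6a mark its 43 differences from Ly6c2.
Ly6c1: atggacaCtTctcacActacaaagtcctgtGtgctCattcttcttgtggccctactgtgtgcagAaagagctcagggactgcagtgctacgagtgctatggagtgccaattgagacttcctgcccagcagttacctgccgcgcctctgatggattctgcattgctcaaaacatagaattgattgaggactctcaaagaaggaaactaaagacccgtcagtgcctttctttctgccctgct
Ly6c2: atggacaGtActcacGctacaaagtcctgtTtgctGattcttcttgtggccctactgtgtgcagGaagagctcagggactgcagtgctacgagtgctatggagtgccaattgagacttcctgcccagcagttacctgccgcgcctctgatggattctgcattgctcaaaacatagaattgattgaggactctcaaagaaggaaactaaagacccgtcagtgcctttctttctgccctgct
Ly6a: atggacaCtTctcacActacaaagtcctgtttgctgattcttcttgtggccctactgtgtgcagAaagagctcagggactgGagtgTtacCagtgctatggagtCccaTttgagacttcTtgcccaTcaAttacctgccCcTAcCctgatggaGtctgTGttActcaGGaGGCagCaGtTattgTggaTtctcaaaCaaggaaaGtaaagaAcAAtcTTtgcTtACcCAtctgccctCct

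The 6 differences between Ly6c1 and Ly6c2 in this stretch lie at positions 8 to 65, counted from the first base of the start codon. At 4 of them Ly6a has the base of Ly6c1 and at 2 that of Ly6c2. Over the whole coding sequence, 387 of 396 bases of Ly6c1 and Ly6c2 were identical (97.7%). Ly6a was 82.0% identical to Ly6c1 and 81.7% identical to Ly6c2, and the other pairs among the 5 genes were 49.4% to 52.6% identical.

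The copies also share runs of at least 31 bases. Of all 31-base words in the annotated transcripts of Ly6c2, 51.2% also occurred in another gene of the table, 403 of them in Ly6c1. For Ly6c1 the share was 46.8%. For Ly6a it was 30.3%, with 276 words shared with Ly6c1, 106 with Ly6i and 84 with Ly6c2. Ly6e and Ly6d shared 0 such words with genes of the table, though 17 words of Ly6e occurred in annotated genes outside it, 15 of them in the pseudogene Ly6e-ps1. Reads were 150 bases long, so a shared word does not by itself leave a read without a single origin. Sharing at the length of a read was not computed. How reads were divided cannot be checked from counts per gene, so values of Ly6c1, Ly6c2 and, in part, Ly6a remain uncertain in that respect.

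Upstream of their start sites the Ly6c copies differ more than in their coding sequence. The 200 bases before the start site are shown for both, since the same kind of transcript stood at very unlike levels in these libraries. They are from RefSeq on GRCm38.p6, on the minus strand, at chr15:75048838-75049037 for Ly6c1 and chr15:75111972-75112171 for Ly6c2. Capitals mark bases that differ or have no partner in the alignment of the 2 runs, with overhanging ends left in lower case.
Ly6c1: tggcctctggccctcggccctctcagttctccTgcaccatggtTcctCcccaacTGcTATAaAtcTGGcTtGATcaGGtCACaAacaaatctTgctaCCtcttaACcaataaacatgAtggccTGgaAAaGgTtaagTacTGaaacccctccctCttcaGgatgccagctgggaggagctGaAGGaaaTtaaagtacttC
Ly6c2: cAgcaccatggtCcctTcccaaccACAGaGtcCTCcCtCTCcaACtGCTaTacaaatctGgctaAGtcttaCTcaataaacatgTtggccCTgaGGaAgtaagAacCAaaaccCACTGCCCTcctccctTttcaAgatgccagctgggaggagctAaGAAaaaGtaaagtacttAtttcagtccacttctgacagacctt

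These promoters overlapped over 178 alignment columns, of which 123 were identical (69.1%), 43 were substitutions and 12 were gaps. The promoter table held an entry for 2 of the 5 genes, and Ly6a, Ly6e and Ly6d are named only. In the windows of 300 bases around the start site, 5 motifs were searched on both strands. GAGGAAGT, a core bound by ETS factors such as PU.1, was found at 2 places for Ly6c2 and 0 for Ly6c1, and in 3.1% of 32544 such windows. TATAAA was found at 1 place for Ly6c1 and 0 for Ly6c2, and in 13.6% of windows. The interferon-response core GAAANNGAA (8.5% of windows), the STAT-type site TTCNNNGAA (8.3%) and TTGCNNAA, searched for C/EBP factors (10.8%), had 0 matches in either window. The 2 start sites do not fall at the same place of the alignment, so the windows cover partly different stretches.

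The libraries held 14270069 to 22070594 estimated counts. Levels are in CPM, counts scaled to the TMM-adjusted library size, and each group's mean is given ± SD (n = 3 libraries). The log2 fold change is TMRM-high minus TMRM-low with its standard error (SE) from edgeR's fit of all genes. TMRM-high libraries were more alike than TMRM-low ones: the chi-square per degree of freedom over genes was 4.09 to 7.09 for pairs of TMRM-high libraries, and 48.8 to 54.5 for pairs of TMRM-low libraries, all above the value of 1 that sampling noise alone gives. Of the other genes of the gate, Kit stood at 263 ± 4.93 CPM in TMRM-high against 248 ± 53.9 CPM in TMRM-low, and Slamf1, which encodes CD150, at 5.53 ± 0.569 and 5.13 ± 3.98 CPM. Cd48, whose protein the gate leaves out, stood at 147 ± 2.82 and 137 ± 22.6 CPM. None of these 3 genes passed edgeR's quasi-likelihood test.

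Ly6a RNA was 5.52-fold lower in the TMRM-high libraries. It stood at 28.2, 30.3 and 32.6 CPM in TMRM-high replicates 1, 2 and 3 and at 163, 163 and 176 CPM in TMRM-low replicates 1, 2 and 3. The groups lay far apart, and each was tight. The means were 30.3 ± 2.18 and 167 ± 7.77 CPM, a log2 fold change of -2.47 (SE 0.103), and the counts behind them were 469 to 622 and 2614 to 3242 per library. Sca-1 protein was required on cells of both groups, so the difference in its RNA lies within cells that passed the same Sca-1 gate. In bulk libraries such as these, fewer cells of a type and less RNA per cell cannot be told apart. Ly6a (ENSMUSG00000075602) lies at chr15:74994877-74998031 on the minus strand of GRCm38.

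Ly6c2, which encodes the Ly6C antigen of monocytes and the granulocyte lineage, went the opposite way. It stood at 645, 649 and 672 CPM in the TMRM-high libraries and at 126, 114 and 132 CPM in the TMRM-low libraries. Every TMRM-high library was above every TMRM-low library, with little spread in either group. The means were 655 ± 14.3 and 124 ± 8.89 CPM, a 5.28-fold difference with a log2 fold change of 2.40 (SE 0.0715). With the counts of Ly6c1 added to those of Ly6c2, the log2 fold change was 2.38. That sum does not depend on how reads were divided between these copies, but it does not cover reads shared with Ly6a. Ly6c2 (ENSMUSG00000022584) lies at chr15:75108158-75111970 on the minus strand.

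Ly6d marks lymphoid progenitors with B cell potential and was nearly absent from the TMRM-low libraries. It stood at 24.9, 24.4 and 25.6 CPM in TMRM-high and at 0.0579, 2.31 and 0.980 CPM in TMRM-low. The TMRM-high libraries were almost equal, while the TMRM-low libraries ranged from 1 to 37 counts. The means of 24.9 ± 0.594 and 1.12 ± 1.13 CPM differed 22.4-fold, a log2 fold change of 4.49 with an SE of 0.840. Ly6d (ENSMUSG00000034634) lies at chr15:74762056-74763620 on the minus strand.

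Ly6e, a broadly expressed and interferon-inducible member known for limiting the entry of some viruses, was lower in TMRM-high by a smaller step. Its levels were 513, 480.3 and 484 CPM in TMRM-high against 723, 727 and 725 CPM in TMRM-low. The groups did not overlap, and the TMRM-low libraries were nearly identical. The means of 493 ± 17.9 and 725 ± 1.83 CPM differed 1.47-fold, a log2 fold change of -0.56 (SE 0.0503). Ly6e (ENSMUSG00000022587) lies at chr15:74955051-74959905 and is the only one of the 5 on the plus strand.

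Ly6c1, the near-copy of Ly6c2, was barely detected. It had 12, 12 and 4 counts in the TMRM-high libraries (0.544, 0.616 and 0.278 CPM) and 64, 12 and 49 counts in the TMRM-low libraries (3.70, 0.749 and 2.67 CPM). The groups did not overlap in CPM, but TMRM-low replicate 2 lay close to the TMRM-high libraries. The means were 0.479 ± 0.178 and 2.37 ± 1.5 CPM, and the log2 fold change of -2.28 had an SE of 0.759. Ly6c1 (ENSMUSG00000079018) lies at chr15:75044018-75048830 on the minus strand.

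**Figure D1:**
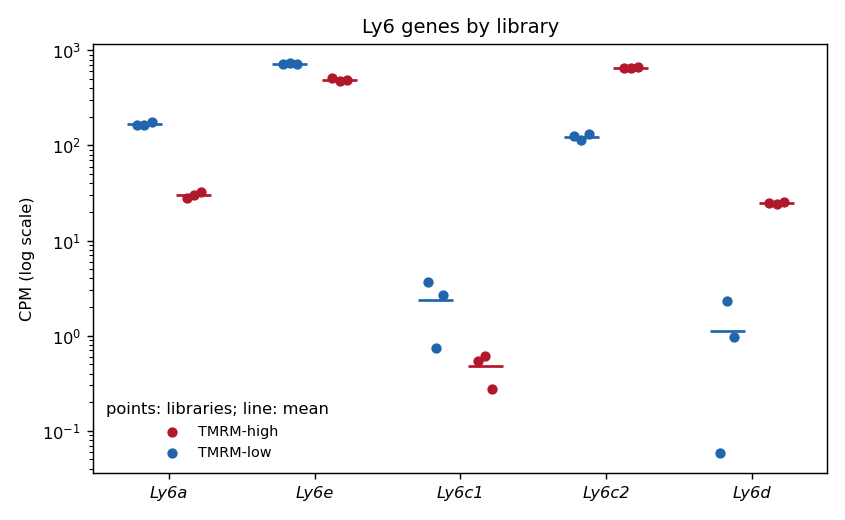
Level of each of the 5 Ly6 genes in CPM (log scale) in the 3 TMRM-low libraries (blue points) and the 3 TMRM-high libraries (red points), with lines at the group means. Ly6a and Ly6e sit lower and Ly6c2 and Ly6d higher in TMRM-high, and Ly6c1 is under 4 CPM in every library.

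Across the 13662 genes tested, edgeR called 5.84% higher and 5.12% lower in TMRM-high at an adjusted p below 0.05 (11.0% in either direction). The groups did not overlap for 5 of 5 members, against 35.4% of genes tested. Since this contrast chose the genes, calls on them are not given and nothing is read from these shares. Among all genes tested, 144 had a smaller log2 fold change than Ly6a, 363 a larger one than Ly6c2 and 153 a larger one than Ly6d. The median over all genes was -0.03. The values of Ly6d and Ly6c1 moved when a single TMRM-low library was left out: without TMRM-low replicate 2 the log2 fold change was 5.55 for Ly6d and -2.70 for Ly6c1, and without TMRM-low replicate 1 it was 3.94 and -1.80.

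The spread within a group differed by member. The coefficient of variation in TMRM-high was 7.17% for Ly6a, 2.18% for Ly6c2, 3.64% for Ly6e and 2.38% for Ly6d. In TMRM-low it was 4.64% for Ly6a, 7.17% for Ly6c2 and 0.252% for Ly6e. For Ly6d in TMRM-low it was 101%, and for Ly6c1 it was 37.2% in TMRM-high against 63.2% in TMRM-low. The wide spreads were those of the lowest counts, and Ly6a, Ly6c2 and Ly6e were tight in both groups.

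Levels of different genes can be compared only per length, here per kilobase of the union of exons of each gene's coding transcripts. In TMRM-high, the order from the top was Ly6c2 at 755 ± 16.5, Ly6e at 196 ± 7.13, Ly6d at 33.5 ± 0.798, Ly6a at 25.2 ± 1.81 and Ly6c1 at 0.286 ± 0.106 CPM per kilobase. No neighbours in that order overlapped. In TMRM-low, Ly6e came first at 289 ± 0.729 CPM per kilobase. Ly6c2 (143 ± 10.2) and Ly6a (139 ± 6.45) followed and overlapped, as Ly6c2 exceeded Ly6a in TMRM-low replicates 1 and 3 and Ly6a exceeded Ly6c2 in replicate 2. Ly6d (1.5 ± 1.52) and Ly6c1 (1.42 ± 0.894) came last and overlapped as well. The order rests in part on the length used. With the median length of the coding transcripts, a measure added after the values were seen, Ly6a stood at 35.4 and Ly6d at 33.5 CPM per kilobase in TMRM-high, which puts Ly6a above Ly6d. In TMRM-low the same measure puts the mean of Ly6c1 (4.39 ± 2.78) above that of Ly6d (1.5 ± 1.52). It leaves Ly6a (195 ± 9.06) and Ly6c2 (194 ± 13.9) about equal there.

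Ratios within a library do not depend on how libraries are scaled. For each Ly6a count there were 22.9, 21.4 and 20.6 Ly6c2 counts in the TMRM-high libraries, and 0.775, 0.700 and 0.746 in the TMRM-low libraries. By count, Ly6c2 was far in excess of Ly6a in the TMRM-high libraries and somewhat below Ly6a in the TMRM-low libraries. The log2 ratio of Ly6a to Ly6c2 counts was -4.43 ± 0.0752 in TMRM-high against 0.44 ± 0.0741 in TMRM-low, a difference of -4.87. Per kilobase the ratio was -4.91 in TMRM-high against -0.04 in TMRM-low, so per length both transcripts were near parity in TMRM-low.

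The summed level of the 5 genes changed much less than its make-up. It was 1204 ± 16.6 CPM in TMRM-high against 1019.9 ± 15.3 CPM in TMRM-low. Ly6e gave 71.1 ± 1.11% of these counts in TMRM-low and 40.9 ± 1.27% in TMRM-high, and Ly6c2 gave 12.2 ± 0.715% and 54.4 ± 1.08%. Ly6e was thus the main Ly6 transcript by count in TMRM-low and Ly6c2 in TMRM-high. Ly6a went from 16.4 ± 0.529% in TMRM-low to 2.52 ± 0.179% in TMRM-high, and Ly6d from 0.110 ± 0.113% to 2.07 ± 0.0279%.

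**Figure D2:**
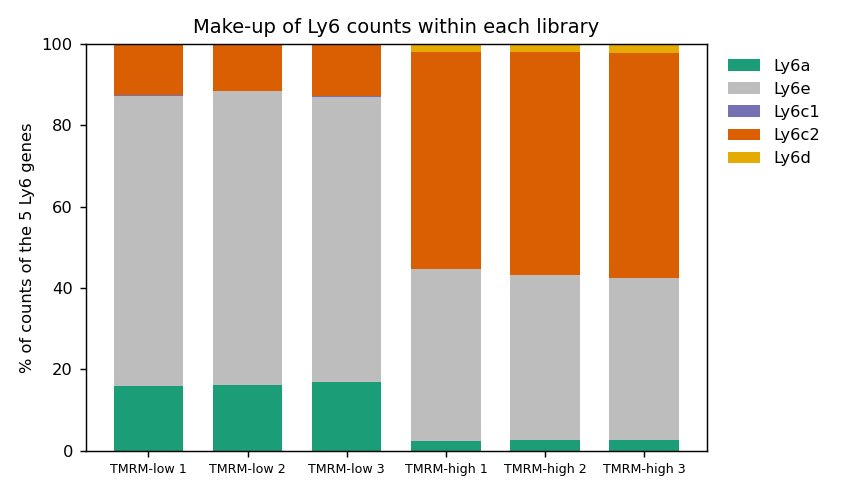
Share of each of the 5 Ly6 genes in their summed estimated counts, in percent, with 1 bar for each of the 3 TMRM-low and 3 TMRM-high libraries. Ly6e makes up 71.1% on average in TMRM-low and Ly6c2 54.4% in TMRM-high, and bars of a group look alike.

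Ly6C is a single antigen to most antibodies, but its RNA comes from both Ly6c genes. Of the counts of Ly6c1 and Ly6c2 together, Ly6c1 held 0.0843%, 0.0948% and 0.0413% in the TMRM-high libraries and 2.85%, 0.651% and 1.99% in the TMRM-low libraries. The Wilson 95% interval of the share reached 0.166% in TMRM-high replicate 2 and started at 0.373% in TMRM-low replicate 2, for counting error only. The share has Ly6c2 in its denominator, so the chosen difference in Ly6c2 moves it by itself: with 12 Ly6c1 counts in replicate 2 of both groups, the shares still differed. Ly6c1 held little of the Ly6c counts in any library, and how the authors' quantification divided shared reads between the copies bears directly on so small a share.

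The cluster itself was searched for other genes that moved. From Psca to Gpihbp1, at chr15:74714839-75599481 on GRCm38 (884.6 kb), GENCODE M21 annotates 50 genes, of which 26 are in the count table. The 5 members held 94.5% of all counts of the interval. Of the 21 other genes 16 had under 100 counts over all libraries, among them Psca and Slurp1 at 0, and 8 could be tested. By edgeR's quasi-likelihood test 0 of the 8 were higher and 1 was lower in TMRM-high. At an unadjusted p below 0.05, and by DESeq2, the counts were likewise 0 higher and 1 lower. Without TMRM-low replicate 2 or 3, 1 was called higher. The tested genes not called in the main fit were Them6, Lynx1, 2010109I03Rik, Ly6i, Gm10238, Ly6f and Ly6h. Their log2 fold changes ran from -1.08 (Ly6h, SE 0.554) to 1.52 (Gm10238, SE 0.880).

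The 1 gene lower was 9030619P08Rik, a transcribed pseudogene whose start site lies 434 kb from that of Ly6a. It stood at 38.7 ± 2.72 CPM in TMRM-high against 74.6 ± 12.5 CPM in TMRM-low, a log2 fold change of -0.94 (SE 0.158, edgeR adjusted p = 0.00951). This call was lost without any 1 TMRM-high library (edgeR adjusted p from 0.0574 to 0.0720). For Ly6i, the neighbour that shares words with Ly6a, the log2 fold change of 0.10 had an SE of 0.831 (edgeR adjusted p = 0.96), too wide to place it. Ly6k was too low to test, at 12, 14 and 9 counts in TMRM-high against 0, 1 and 0 in TMRM-low, a ratio of 32.3 with an exact 95% interval of 5.43 to 1313 for counting error. The members lie among these genes: the start site of Ly6d lies -234 kb, that of Ly6e -43.0 kb, that of Ly6c1 50.8 kb and that of Ly6c2 114 kb from that of Ly6a.

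**Figure D3:**
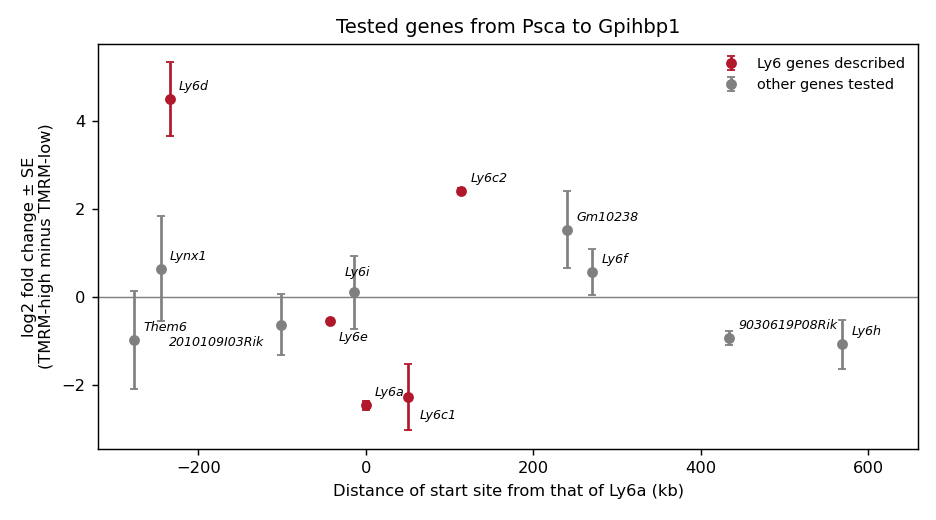
Log2 fold change (TMRM-high minus TMRM-low, bars show the SE) of the tested genes between Psca and Gpihbp1, against the distance of each start site from that of Ly6a in kb. The 5 Ly6 genes described (red) lie on both sides of 0, from Ly6d at -234 kb to Ly6c2 at 114 kb, and most of the other genes (grey) have long bars that reach or come near 0.

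Genes of the wider family and of the GPI anchor gave a background for the members. Of 22 Ly6/uPAR genes outside chromosome 15, 20 were in the table and 8 were testable. Among these 8, edgeR called 0 higher and 0 lower, and 0 had an unadjusted p below 0.05. DESeq2 called 0 as well, 1 was called higher without TMRM-low replicate 1 or 2, and the median log2 fold change was -0.03, as over all genes. The family list includes Cd59b, a complement inhibitor, at 17.3 ± 2.31 and 11.0 ± 3.78 CPM (adjusted p = 0.25 by edgeR), and Cd177, a neutrophil antigen, at 12.6 ± 1.19 and 2.98 ± 2.90 CPM (adjusted p = 0.29 by edgeR).

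The GPI anchor is built in the endoplasmic reticulum by the PIG enzymes and joined to the protein by a transamidase. Of 28 tested genes of this pathway edgeR called 0 higher and 0 lower, and the median log2 fold change was 0.06. At an unadjusted p below 0.05 there were 5 higher and 1 lower, and DESeq2 called 3 higher and 1 lower. Without TMRM-low replicate 1, edgeR called 3 higher and 2 lower, without replicate 2 it called 2 higher and without replicate 3 it called 1 higher. Piga, the catalytic subunit of the first step, stood at 22.7 ± 2.71 and 11.4 ± 3.68 CPM, and Dpm1, which makes the mannose donor, at 46.5 ± 2.18 and 65.4 ± 9.34 CPM, both with an edgeR adjusted p of 0.073.

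Among 19 other GPI-anchored proteins of blood cells, 3 were higher and 2 lower by edgeR (median log2 fold change -0.08), and DESeq2 called 3 higher and 4 lower. Procr, the HSC marker EPCR, fell to 3.57 ± 0.304 CPM in TMRM-high against 33.9 ± 9.84 CPM in TMRM-low, a log2 fold change of -3.25 (SE 0.299, edgeR adjusted p = 0.000554). Bst2, the interferon-induced tetherin, fell by 1.11 on the log2 scale (edgeR adjusted p = 0.00102). Cd24a, expressed by B progenitors and granulocytes, stood at 386 ± 14.3 against 273 ± 33.9 CPM (edgeR adjusted p = 0.017). Cd14, the endotoxin co-receptor, stood at 29.2 ± 0.659 against 4.29 ± 3.58 CPM (edgeR adjusted p = 0.0299). Bst1, an ectoenzyme of stromal and myeloid cells, was the other gene called, at 4.49 against 0.149 CPM (edgeR adjusted p = 0.0158). Calls of Bst1, Cd24a and Cd14 were lost without any 1 TMRM-high library, at edgeR adjusted p from 0.0823 to 0.0948 for Bst1, 0.0647 to 0.0921 for Cd24a and 0.116 to 0.117 for Cd14. Cd14 was also not called without TMRM-low replicate 2 (edgeR adjusted p = 0.0682). Without TMRM-low replicate 1, 4 genes were called lower, and with the TMRM-high libraries summed into 1 library, which is then assumed to vary like the TMRM-low ones, 0 of the 19 were called.

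Ly6a and Ly6e are interferon-induced, so the other genes of that response were set beside them. Of 37 tested interferon response genes 28 were lower and 1 was higher in TMRM-high, with a median log2 fold change of -1.12. Their summed level was 1756 to 1798 CPM in TMRM-high against 3672 to 3757 CPM in TMRM-low, and the summed ranges did not overlap. Ifitm3, which blocks virus entry, stood at 164 ± 3.13 against 597 ± 42.9 CPM, and Rtp4 at 16.2 ± 1.38 against 96.9 ± 14.3 CPM. Irf7, a transcription factor of the response, and Ifi27 fell by 2.94 and 1.59 on the log2 scale. All 4 were called in every alternative run. The 1 gene higher was the chemokine Cxcl10, at 40.0 ± 1.56 against 3.72 ± 0.855 CPM, a call lost when the TMRM-high libraries were summed.

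Within this list Ly6a stood low and Ly6e near the upper end. Of the 37 genes, 6 had a smaller log2 fold change than Ly6a and 29 a smaller one than Ly6e. With the TMRM-high libraries summed into 1, the number of interferon genes called lower was 5. Plasmacytoid dendritic cells, known for high interferon-response RNA, were checked by 9 tested markers: 3 were lower (Irf8, Bst2 and Tcf4) and 0 higher by edgeR, with 1 higher and 3 lower at an unadjusted p below 0.05 and by DESeq2. With TMRM-low replicate 3 left out, 3 were called higher, and with the TMRM-high libraries summed 0 were called lower. Bst2 stands in 3 of the lists used here and Irf8 in 2, so the lists are not independent. The summed level of the plasmacytoid dendritic list was 417 to 445 CPM in TMRM-high against 688 to 761 CPM in TMRM-low. A large part of that gap was Irf8, whose levels are given below with the monocyte genes. The other 6 tested markers were not called, and the median log2 fold change of the list was -0.45. Whether these markers bear on the level of Ly6a or Ly6e was not tested.

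Ly6a is also a stem cell gene. Of 25 tested HSC identity genes 11 were lower and 3 higher in TMRM-high, with a median log2 fold change of -0.59, and 4 had a smaller log2 fold change than Ly6a. The summed level was 2634 to 2698 CPM in TMRM-high against 3245 to 3367 CPM in TMRM-low. Most of that gap was the single gene Ifitm1, at 122 ± 1.73 against 641 ± 46.5 CPM, so the sum says little about the rest of the list. Ifitm1, Hlf (a transcription factor of HSC self-renewal) and Lmo2 fell by 2.40, 1.53 and 0.59 on the log2 scale. Egr1, a transcription factor of HSC quiescence that is also an immediate early gene, was higher by 1.21 on the log2 scale. After summing TMRM-high libraries, 2 of these genes were called lower and 1 higher. Both groups were gated as HSCs, and the part of HSC content in the level of Ly6a was not tested.

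Endothelial cells express Ly6a and Ly6c, so their markers were read too. Of 10 tested markers 3 (Eng, Egfl7 and Esam) were lower and 1 was higher. That 1 was Plvap, which had 0 counts in TMRM-low and is at least 27.7-fold higher in TMRM-high, taking its floor as 3 counts over the TMRM-low group. Its call, and that of Esam, was lost without any 1 TMRM-high library (edgeR adjusted p from 0.0694 to 0.0762 for Plvap and 0.0724 to 0.0861 for Esam), and with the TMRM-high libraries summed no marker of the list was called. Without TMRM-low replicate 2, 2 markers were called higher. The summed level of the list was 277 to 288 CPM in TMRM-high against 416 to 429 CPM in TMRM-low. The share of these markers in the Ly6 levels was not tested.

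Granulocyte and monocyte genes, among which Ly6c2 belongs by its known expression, were higher in TMRM-high for 17 of 24 tested members and lower for 3, with a median log2 fold change of 1.73. The summed level was 16388 to 16776 CPM in TMRM-high against 4514 to 4849 CPM in TMRM-low. The granule protease Elane, the granule enzyme Mpo, the alarmin S100a8 and the antimicrobial peptide Camp were higher by 3.71, 1.59, 3.55 and 4.17 on the log2 scale. Camp stood at 337 ± 13.8 against 18.8 ± 2.84 CPM. Of the 24 genes, 11 had a larger log2 fold change than Ly6c2, which thus stood near the middle of the list.

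The 3 members that were lower, named after their values were seen, were Irf8, a transcription factor of monocytes and dendritic cells, Ccr2, the chemokine receptor of Ly6C-high monocytes, and F13a1, which monocyte progenitors express. Irf8 stood at 173 ± 9.39 against 323 ± 22.3 CPM, Ccr2 at 32.8 ± 5.04 against 84.1 ± 18.6 CPM and F13a1 at 32.7 ± 3.91 against 62.5 ± 14 CPM. The call of F13a1 was lost without any 1 TMRM-high library (edgeR adjusted p from 0.0810 to 0.133). Other genes that monocytes express were among those called higher, such as Cd14, Fcgr3, Itgam and Lyz2, by 2.76, 3.44, 1.28 and 0.54 on the log2 scale. Once TMRM-high libraries were summed, 12 of the 24 genes were called higher and 0 lower. No marker of the list was at 0 in all libraries, and the part of granulocyte or monocyte RNA in the level of Ly6c2 was not tested.

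Ly6d was set beside B lymphoid genes. Of 15 tested members 10 were higher and 1 (Dntt) was lower in TMRM-high, and 8 had a larger log2 fold change than Ly6d. The median log2 fold change of the list was 4.80, or 3.97 with the 1 gene at 0 in a group set to its lower bound. Ebf1, the factor that commits cells to the B lineage, Cd79a, a chain of the B cell receptor, and Igll1 and Vpreb1, which form the surrogate light chain, were higher by 4.80, 5.58, 6.07 and 7.25 on the log2 scale. The summed level was 847 to 874 CPM in TMRM-high against 452 to 489 CPM in TMRM-low. With these TMRM-high libraries summed, 5 were called higher. No marker of the list was at 0 in all libraries, and its part in the level of Ly6d was not tested.

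Plasma cells and T and NK cells can carry Ly6 RNA too. Of 9 tested plasma cell markers 5 were higher and 0 lower by edgeR, with 6 higher and 0 lower at an unadjusted p below 0.05 and by DESeq2 (463 to 481 CPM summed in TMRM-high against 194 to 236 CPM in TMRM-low). They included Mzb1 and Ighg2b, higher by 3.60 and 3.35 on the log2 scale. Without any 1 TMRM-high library 3 plasma cell markers were called, and with these libraries summed 0. Of 13 tested T and NK markers 1 (Nkg7) was higher and 4 were lower, among them Cd3d, Il2rb and Ncr1 (8 lower at an unadjusted p below 0.05 and by DESeq2, 7 by limma, 2 without TMRM-high replicate 1 and 0 with the TMRM-high libraries summed, and 2 higher without TMRM-low replicate 1). The summed level was 662 to 674 CPM in TMRM-high against 434 to 512 CPM in TMRM-low. That sum went against most of the markers: the median log2 fold change of the list was -1.42, and that of Nkg7 was 1.35. Erythroid markers, 7 higher and 1 lower of 15 tested, had overlapping summed ranges of 660.3 to 687 and 646 to 785 CPM. Without any 1 TMRM-high library 2 or 3 of them were called higher, and with these libraries summed 1. What these cell types add to the levels of Ly6c2 and Ly6d was not tested.

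**Figure D4:**
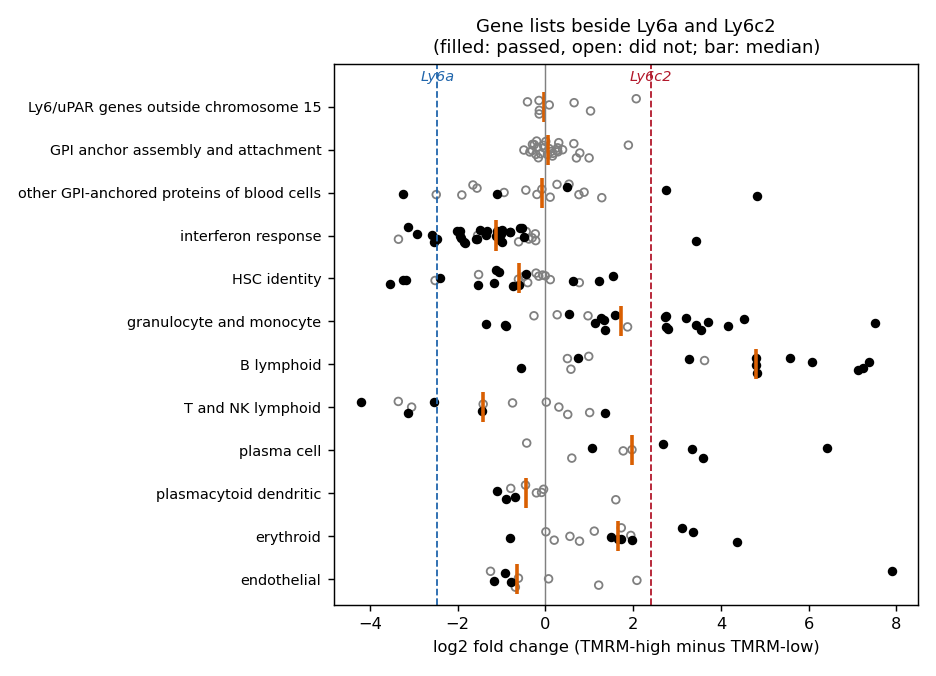
Log2 fold change (TMRM-high minus TMRM-low) of the tested genes of 12 lists, filled points having passed edgeR's test and open points not, with an orange bar at the median of each list. Dashed lines mark Ly6a at -2.47 and Ly6c2 at 2.40. The interferon response list lies mostly left of 0, with a median of -1.12, and the granulocyte and monocyte list mostly right of it, with a median of 1.73.

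The genes whose profile over the 6 libraries came nearest to Ly6a and Ly6c2 were sought among 9931 genes, by the root mean square distance between log2 CPM centred on each gene's mean. Nearest to Ly6a were Tgtp1, an interferon-induced GTPase (distance 0.0685), Ifitm1 (0.0836) and Rpl3, a protein of the large ribosomal subunit (0.125). Tgtp1 stood at 26.0 ± 1.88 against 133 ± 6.92 CPM, Ifitm1 at 122 ± 1.73 against 641 ± 46.5 CPM and Rpl3 at 573 ± 12.4 against 2767 ± 138 CPM. These genes share the libraries, and their likeness is a description of 6 points that fall into 2 groups.

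Nearest to Ly6c2 were Pglyrp1, a peptidoglycan-binding protein of neutrophil granules (distance 0.10), B4galt6, a galactosyltransferase of glycolipid synthesis (0.124), and Tnfaip3, an inhibitor of NF-kB signalling (0.127). Pglyrp1 stood at 184 ± 3.29 against 31 ± 2.72 CPM, B4galt6 at 86.7 ± 2.45 against 18.1 ± 1.05 CPM and Tnfaip3 at 170 ± 8.67 against 30.8 ± 6.20 CPM. Their likeness in direction and size follows from how they were sought, and Tnfaip3 spread more within TMRM-low, from 23.9 to 35.9 CPM, than the other two.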

How the data were processed

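RNA was measured in 3 TMRM-high and 3 TMRM-low libraries of 1500 sorted cells each. Per the labels' protocols, RNA was reverse transcribed and amplified by PCR before tagmentation, without molecular identifiers or strand marking being described. Per the submitters' processing notes, the tools were Salmon, its version given as 0.03.1, and Trim Galore 0.5.0, with the build GRCm38. How transcripts were summed to genes, and with which annotation, is not given in the sources used here. What was deposited is the authors' estimated count per gene, not whole for 26.95% of values, which was rounded to whole numbers. Salmon divides reads between alike transcripts, which can move counts between Ly6a, Ly6c1 and Ly6c2.

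Symbols were matched for 27728 of 28786 IDs, and positions came from GENCODE M21. Library sizes were scaled by TMM and genes kept by filterByExpr. edgeR 4.0.16 in R 4.3.3 fitted a quasi-likelihood model with group as its only term (glmQLFit, robust, glmQLFTest), two-sided with Benjamini-Hochberg adjustment over 13662 genes and calls at an adjusted p below 0.05. DESeq2 1.42.0 and limma 3.58.1 (voom with quality weights), other scalings and filters and the replicate number as a block were alternatives. So were TMRM-high libraries summed, each library left out and, for Ly6c2, the counts of Ly6c1 and Ly6c2 summed. The members and the gene lists were chosen with earlier results of these data known. Of 231 listed genes 6 stand in several lists: Bst2, Cd14, Esam, Irf8, Procr and Tie1. Beside the members, the rule names the tested genes of the interval and 3 nearest profiles each for Ly6a and Ly6c2. It also names up to 4 called genes of each list with the smallest p, or up to 2 tested ones where none was called. Genes outside this rule are Cd14, Fcgr3, Itgam, Lyz2, Ccr2, F13a1, Cxcl10, Dntt, Ly6k, Psca, Slurp1, Kit, Slamf1 and Cd48, most of them chosen after their values were seen. A gene at 0 in a group was set to 3 counts over the group.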

Additional observations from a re-analysis of the deposited data

How the results depend on the processing

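The direction of all 5 Ly6 genes was the same under every alternative that gave a value. The groups did not overlap for any of the 5, so leaving out a library could hardly have reversed a direction. The log2 fold change ranged from -2.52 to -2.41 for Ly6a, -2.70 to -1.80 for Ly6c1, 2.35 to 2.45 for Ly6c2, -0.58 to -0.54 for Ly6e and 3.94 to 5.55 for Ly6d, and the difference in the log2 ratio of Ly6a to Ly6c2 from -4.90 to -4.83. A minimum mean of 50 counts left Ly6c1 without a value. Counts over all genes moved more: 798 genes were higher and 700.0 lower, against 1324 and 1337 by DESeq2, 582 and 449 with the replicate number as a block, 86 and 42 with the TMRM-high libraries summed, and 1138 lower at an adjusted p below 0.10. Leaving out 1 TMRM-high library gave 250 to 269 higher and 181 to 198 lower. Leaving out 1 TMRM-low library gave 1218 to 1398 higher and 985 to 1174 lower. Same-numbered libraries had correlations of deviations from their group means of -0.009, -0.0007 and 0.030. These values show no pairing by replicate number. They cannot exclude one, since each group has 3 libraries and the TMRM-high libraries differ little from each other. With the TMRM-high libraries summed, B lymphoid genes higher numbered 5, interferon genes lower 5 and HSC identity genes lower 2. Depth limits Ly6c1 and, in TMRM-low, Ly6d.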
